A study of Homo sapiens with 4 samples.

Results

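The genes described here encode the histones that are made in bulk for newly replicated DNA, together with the H1 genes named in the same series. They were chosen by symbol alone, as every gene whose name starts with HIST1H to HIST4H or with H1-, H2AC, H2BC, H3C or H4C and a number. The rule found 60 of 16834 genes, and the 59 described here are 6 genes of H1, 14 of H2A, 16 of H2B, 12 of H3 and 11 of H4. By RefSeq positions on GRCh38.p14, 28 lay in the distal and 19 in the proximal part of the chromosome 6 cluster and 10 on chromosome 1. The other 2, H1-10 on chromosome 3 and H1-7 on chromosome 12, lie outside the clusters.

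The study asked what NBT and trametinib, alone or combined, do to pancreatic ductal adenocarcinoma cells. RNA of MIA PaCa-2, an established human line of that tumor, was sequenced on a BGISEQ-500 in 4 conditions. One library came from control cells, one from cells given 1 µM NBT (neobractatin, a compound from Garcinia bracteata), one from cells given 5 µM trametinib (which inhibits the kinase MEK) and one from cells given both, each for 12 h. Every library carries the genotype entry WT, and the cell line entries differ between the libraries although the titles name MIA PaCa-2 throughout. With 1 library a condition there is no replicate check, so every difference below is between libraries, no p-value is given, and intervals (95%, Clopper-Pearson) cover counting error only.

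A nucleosome winds DNA around an octamer of H2A, H2B, H3 and H4, and H1 binds where the DNA enters and leaves it. The clustered genes are transcribed mainly in S phase, lack introns for the most part, and give mRNAs that end in a stem-loop instead of a poly(A) tail, although some of them can also give polyadenylated mRNA. H1-10 is expressed outside S phase as well and has a polyadenylated mRNA. Many clustered genes are near-copies of each other, so short reads can often not be assigned to one of them.

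Library sums were 18776254 reads in control, 19437771 in NBT, 18949958 in trametinib and 19614826 in the combination. The epithelial marker KRT8 had 63594, 57181, 38101 and 26811 reads in that order, and EPCAM 3502, 3275, 3113 and 3383. CDH1 had 3912, 2539, 4086 and 2804 reads and VIM 202, 249, 425 and 500. Of 6 measured epithelial and line markers, VIM was called higher and KRT18 lower in trametinib than in control by the rule given further on, and in the combination VIM was called higher and KRT7, KRT8 and KRT18 lower than control, with log2 ratios of 1.24, -1.27, -1.31 and -1.62. Among all tested genes, 3.86% were called higher and 2.28% lower in trametinib, and 4.89% and 3.83% in the combination. Of markers of other cell types, PTPRC had 8 to 17 reads and PECAM1 14 to 26, CD3E had 0, 0, 55 and 29, COL1A1 45, 27, 98 and 53, and CD68 1503 to 2400. The summed level of the 5 measured markers was 131 TPM in control, 141 in NBT, 98.9 in trametinib and 104 in the combination, most of it CD68, and their part in the histone results was not tested. KRT19 and DCN were not analysed here.

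The histone stem-loop was looked for in the coding transcripts of GENCODE release 29 (GRCh38), as 6 paired bases around a loop of 4. The stem had to begin with GG and pair at every base, so a stem with a mismatch was not counted. Of the 59 genes, 33 had a transcript model with at least 30 bases after the stop codon, and 26 of these held a stem-loop, 22 to 67 bases past the stop codon. None of the 4 H1 genes with such a model held one. The sequences are shown because they are what a replication-dependent histone mRNA ends on, and in 19 of the 26 genes the longest model ran on for more than 100 bases past it. Capitals mark the 6 bases of each side of the stem, T stands for the U of the mRNA, and each is read along the gene's own strand.
H2AC6 (chr6:26124669-26124684, plus strand; the same letters in 14 genes): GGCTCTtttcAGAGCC
H3C8 (chr6:26270923-26270938, minus strand; in 4 genes): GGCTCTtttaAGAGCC
H3C6 (chr6:26225596-26225611, plus strand; in 1 gene): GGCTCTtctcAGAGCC
H4C8 (chr6:26285131-26285146, minus strand; in 4 genes): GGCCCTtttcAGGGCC
H4C14 (chr1:149833032-149833047, plus strand; in 3 genes): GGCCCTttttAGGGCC
The last pair of sequences, with C and G in the place of one T and A of the stem, came from H4 genes only among the 26.

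Promoter windows of 250 bases before to 50 after the start (RefSeq, GRCh38.p14) were available for 54 of the 59 genes. The octamer, the site of OCT1 in H2B promoters, was searched as ATTTGCAT on both strands and occurred in 10 of 13 H2A, 13 of 16 H2B, 1 of 10 H3, 0 of 9 H4 and 0 of 6 H1 windows, against 2.2% of 27305 genes. The CCAAT box, searched on both strands, occurred in all 13 H2A, 16 H2B and 10 H3 windows, in 5 of 6 of H1 and in 1 of 9 of H4, against 39.7% of all genes. The H1 box, searched as AAACACA on both strands, was in 5 of 6 H1 windows against 6.9% of all genes, and TATAA on the gene's own strand in 43 of 54 against 17.8%. The windows of 3 of the most abundant clustered genes, one each of H2B, H2A and H1, are shown with these matches in capitals, which are descriptions of letters and not of bound sites.
H2BC12 (chr6:27146809-27147108, minus strand): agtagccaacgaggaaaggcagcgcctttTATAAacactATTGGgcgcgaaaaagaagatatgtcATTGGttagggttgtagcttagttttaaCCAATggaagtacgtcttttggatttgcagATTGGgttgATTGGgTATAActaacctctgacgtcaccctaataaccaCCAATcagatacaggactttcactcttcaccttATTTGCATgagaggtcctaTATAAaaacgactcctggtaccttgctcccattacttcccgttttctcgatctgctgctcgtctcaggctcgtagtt
H2AC6 (chr6:26123922-26124221, plus strand): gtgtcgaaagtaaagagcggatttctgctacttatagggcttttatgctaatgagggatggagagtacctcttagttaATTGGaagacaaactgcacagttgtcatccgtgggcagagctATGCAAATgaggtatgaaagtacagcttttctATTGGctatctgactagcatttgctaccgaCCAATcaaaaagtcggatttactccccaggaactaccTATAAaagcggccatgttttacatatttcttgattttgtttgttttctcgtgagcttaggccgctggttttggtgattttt
H1-2 (chr6:26056421-26056720, minus strand): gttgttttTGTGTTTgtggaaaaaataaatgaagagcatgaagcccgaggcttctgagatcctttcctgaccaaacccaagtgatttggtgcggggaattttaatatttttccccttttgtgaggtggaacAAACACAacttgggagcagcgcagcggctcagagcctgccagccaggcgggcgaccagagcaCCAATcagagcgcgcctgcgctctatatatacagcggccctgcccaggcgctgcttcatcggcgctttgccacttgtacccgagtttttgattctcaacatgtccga
The H2BC12 window held 1 octamer and the H2AC6 window another on the opposite strand, whereas the H1-2 window held the H1 box and no octamer.

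The histone genes were weakly covered. The 57 clustered genes together had 4032 reads in control, 4328 in NBT, 5106 in trametinib and 4759 in the combination, which was 0.0215%, 0.0223%, 0.0269% and 0.0243% of all reads. Of the 59 genes, 11 reached 50 estimated reads in some library, 23 had 10 to under 50 in their highest library and 25 stayed under 10 in every library. A list of 9 clustered genes known to give polyadenylated mRNA (H1-2, H2AC6, H2BC4, H2BC5, H2BC11, H2BC12, H2BC18, H2BC21 and H4C8, drawn up from general knowledge) carried 87.1% of the clustered reads in control, 87.2% in NBT, 85.5% in trametinib and 84.0% in the combination. The deposited protocol names removal of 23S and 16S rRNA and random priming, and no poly(A) selection. At this depth 3 reads equal 0.153 to 0.160 CPM (reads scaled to a common library size), and a gene listed at 0 was not detectable below that level.

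**Figure D1:**
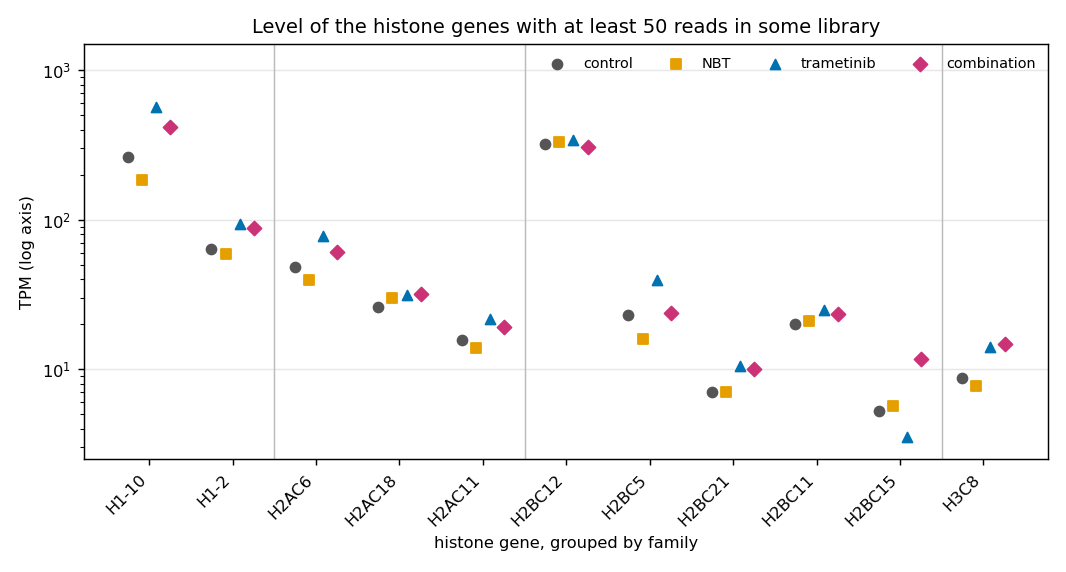
TPM (log axis) of the 11 histone genes with at least 50 reads in some library, with 1 point per library and genes grouped by family. H2BC12 stays between 307 and 344 TPM, H1-10 lies highest in trametinib at 566 TPM, and H2BC15 is lowest in trametinib and highest in the combination.

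Linker histone H1 took 45.9% to 66.6% of the reads on these genes. H1-10, a linker histone of the variant type, had 3715 reads in control, 2848 in NBT, 8223 in trametinib and 6375 in the combination (263, 186, 566 and 420 TPM). It was the only one of the 11 better covered genes to pass the limit of 1 in trametinib, 2.19-fold higher than control (log2 ratio 1.13, interval 1.08 to 1.19), and it was 2.22-fold higher in the combination than in NBT. The call against NBT was lost at an assumed coefficient of variation between cultures of 0.2. The call in trametinib against control was lost at 0.4. The combination stood between trametinib and control, at a log2 ratio of 0.72 (0.66 to 0.78) to control and -0.42 (-0.46 to -0.37) to trametinib. The NBT library was the lowest of the 4, at a log2 ratio of -0.43 (-0.50 to -0.36) to control, and trametinib the highest. The RefSeq span of H1-10 overlaps that of its antisense RNA H1-10-AS1 by 16 bases, and whether counting used strand is not given in the sources used here.

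Most reads of the clustered H1 genes were those of H1-2, a main H1 of dividing cells. It had 422, 422, 634 and 626 reads (64.2, 59.2, 93.8 and 88.7 TPM), so control and NBT lay together and trametinib and the combination lay together. Its log2 ratio to control was 0.57 (0.39 to 0.76) in trametinib and 0.51 (0.33 to 0.69) in the combination. H1-4, another H1 of dividing cells, had 6 reads in control and 21, 20 and 27 in NBT, trametinib and the combination, and was called higher than control in all 3 treated libraries. Its log2 ratios of 1.68, 1.64 and 2.02 had wide intervals (0.40 to 3.36, 0.36 to 3.33 and 0.80 to 3.67). H1-3, H1-6 and H1-7 had at most 2 reads in any library.

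H2A genes were carried by H2AC6, H2AC18 and H2AC11. H2AC6 had 219 reads in control, 195 in NBT, 366 in trametinib and 294 in the combination (48.3, 39.7, 78.5 and 60.5 TPM), with a log2 ratio to control of 0.73 (0.48 to 0.98) in trametinib and 0.36 (0.11 to 0.62) in the combination. H2AC11 had 67, 65, 95 and 88 reads and H2AC18 had 122, 151, 150 and 160. For H2AC18 the interval of all 3 ratios to control reached 0, and none of its 50-base words is specific to it, since its twin H2AC19 (not analysed here) holds them all. Among the weaker genes, H2AC20 had 4, 7, 4 and 23 reads and was called higher in the combination than in each other library, with log2 ratios of 2.32 (0.91 to 4.45) to control, 2.34 (0.93 to 4.47) to trametinib and 1.64 (0.44 to 3.17) to NBT. H2AC8 had 11, 7, 23 and 7 reads and was called lower in the combination than in trametinib (log2 ratio -1.70, -3.23 to -0.50). H2AC7 was estimated at 4.39, 0, 10.7 and 10.7 reads and was called at least 3.63-fold higher in the combination than in NBT, but its span overlaps that of H3C4 and only 2.0% of its 50-base words occur in no other gene.

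H2B genes include H2BC12, the clustered gene with the highest level. It had 2428, 2736, 2678 and 2506 reads (320, 332, 344 and 307 TPM), which was 60.2% of the clustered reads in control and 52.5% in trametinib. Its log2 ratio to control was 0.12 (0.04 to 0.20) in NBT, 0.13 (0.05 to 0.21) in trametinib and -0.02 (-0.10 to 0.06) in the combination. The transcript model of H2BC12 in which words were counted has 381 bases and 0 after the stop codon. Within it, only 25.9% of the 50-base words occur in no other gene. The near-copy that shares most words with it, H2BS1, was given 1.67 reads in trametinib and 0 in the other 3 libraries. The RefSeq span of H2BC12 also overlaps that of H4C9 by 397 bases.

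H2BC5 separated the libraries more. It had 160 reads in control, 124 in NBT, 300 in trametinib and 179 in the combination (23.0, 16.0, 39.3 and 23.7 TPM). Trametinib was above the 3 others, with a log2 ratio of 0.89 (0.61 to 1.18) to control, and the combination was below trametinib at -0.79 (-1.07 to -0.52). Most of these reads were assigned to the transcript without a stem-loop, NM_138720.2, estimated at 142, 105, 277 and 143 reads, while the stem-loop form NM_021063.4 was given 13.7, 6.96, 0 and 13.9. H2BC21, on chromosome 1, had 147, 159, 226 and 226 reads and log2 ratios of 0.61 (0.30 to 0.92) and 0.56 (0.25 to 0.87) to control in trametinib and the combination. H2BC11 had 83, 95, 106 and 105 reads, and the intervals of its ratios to control all held 0.

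In H2BC15, another H2B gene, the combination was highest and trametinib lowest. It had 25 reads in control, 29 in NBT, 17 in trametinib and 60 in the combination (5.29, 5.65, 3.51 and 11.7 TPM). The combination was called higher than control (log2 ratio 1.18, 0.51 to 1.94), than trametinib (1.74, 0.97 to 2.64) and than NBT (1.02, 0.37 to 1.73). The call against NBT was lost when library sizes were scaled with TMM factors (0.99) or median-of-ratios factors (1.00 after rounding) and with 5 added reads (0.92). The trametinib library did not differ from control beyond counting error (-0.56, -1.55 to 0.38). H2BC9, with 20, 7, 32 and 21 reads, was called lower in NBT than in control (-1.50, -3.05 to -0.27) and higher in the combination than in NBT (1.51, 0.28 to 3.05).

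H3 and H4 genes, the core of the nucleosome, were the least covered. H3C8 had 38 reads in control, 36 in NBT, 62 in trametinib and 68 in the combination (7.70 to 14.7 TPM), with log2 ratios to control of 0.69 (0.09 to 1.32) in trametinib and 0.77 (0.18 to 1.39) in the combination. No H4 gene reached 50 reads. H4C5 had 11, 2, 10 and 11 reads and was called at least 3.80-fold lower in NBT than in control against a floor of 3 reads. The other 3 libraries lay within 1 read of each other.

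Several H3, H4 and H2A calls rested on how reads were divided between near-copies. H4C11 was given 22 reads in control and 0 in the 3 treated libraries. H4C12 was given 0 in control and 22, 26 and 43 in NBT, trametinib and the combination. All 50-base words of H4C12 also occur in H4C11, counted in a transcript model of H4C12 with 0 bases after the stop codon. Taken one by one, H4C11 was called lower and H4C12 higher in all 3 treated libraries, at least 7.40-fold lower and 7.08-fold higher at the smallest. Taken as a sum they had 22, 22, 26 and 43 reads, and no comparison of the sum was called. H3C14 and H3C15, identical in every word, were given 0 and 4 reads in control, 0 and 11.8 in NBT, 16.4 and 0 in trametinib and 0 and 13.5 in the combination. Singly they gave a call higher in trametinib than in control (H3C14), a call lower in the combination than in trametinib (H3C14) and a call higher there (H3C15), whereas their sum of 4, 12, 16 and 14 reads was called higher only in trametinib against control (log2 ratio 1.86, 0.35 to 4.03).

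H2AC13 and H2AC14 share 283 words of 50 bases, and their sum of 17, 13, 23 and 14 reads gave no call, while H2AC14 alone, with 0, 7, 10 and 2 reads, was called higher than control in NBT and trametinib and lower in the combination than in trametinib. H4C14 and H4C15 were given 8, 13.5, 17 and 23 reads each, the same in every library. Singly both were called higher in the combination than in control, and their sum of 16, 27, 34 and 46 reads was called higher than control in trametinib (log2 ratio 1.05, 0.18 to 2.03) and in the combination (1.43, 0.61 to 2.38). In all, 33 of the 59 genes had a count that was not whole (by more than 0.005) in some library, as when reads are shared out between genes.

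**Figure D2:**
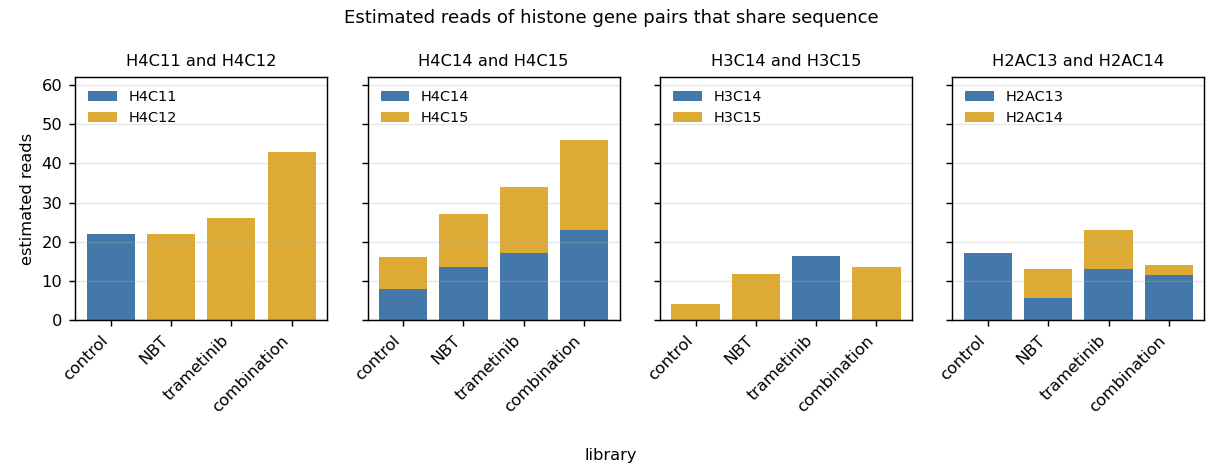
Estimated reads (linear axis) of 4 pairs of histone genes that share sequence, as stacked bars with 1 bar per library. The colour within the H4C11 and H4C12 bar changes from control to the treated libraries while the whole bar is 22 reads in both control and NBT.

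Summed by family, every family lay higher in trametinib than in control beyond counting error. The log2 ratio of trametinib to control was 0.60 (0.42 to 0.78) for the 4 clustered H1 genes, 0.59 (0.42 to 0.76) for H2A, 0.66 (0.33 to 1.00) for H3 and 0.55 (0.10 to 1.02) for H4, and 0.21 (0.14 to 0.28) for H2B, in which H2BC12 has the most reads. The H2B interval lay below those of clustered H1, H2A and H3 and overlapped that of H4. It rests on H2BC12, without which the H2B sum was at 0.55 in trametinib and 0.30 in the combination. The 2 H1 genes outside the clusters lay highest, at 1.13, nearly all of it H1-10. In the combination the ratios to control were 0.55 for clustered H1, 0.37 for H2A, 0.42 for H3, 0.86 (0.43 to 1.31) for H4 and 0.04 (-0.03 to 0.12) for H2B, and H4 was the one family with a ratio of the combination to trametinib above 0, at 0.30 on 129 against 101 reads, whose interval (-0.08 to 0.69) held 0. With only the members that have at least 50% of their words in no other gene, H4 was at 0.35 in the combination against control and at -0.085 against trametinib, so its sign there turned. In NBT the sums of clustered H1, H2A, H3 and H4 had intervals of the ratio to control that held 0, H2B was at 0.07 (0.00 to 0.15) but at -0.18 without H2BC12, and the H1 genes outside the clusters were lower, at -0.43.

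**Figure D3:**
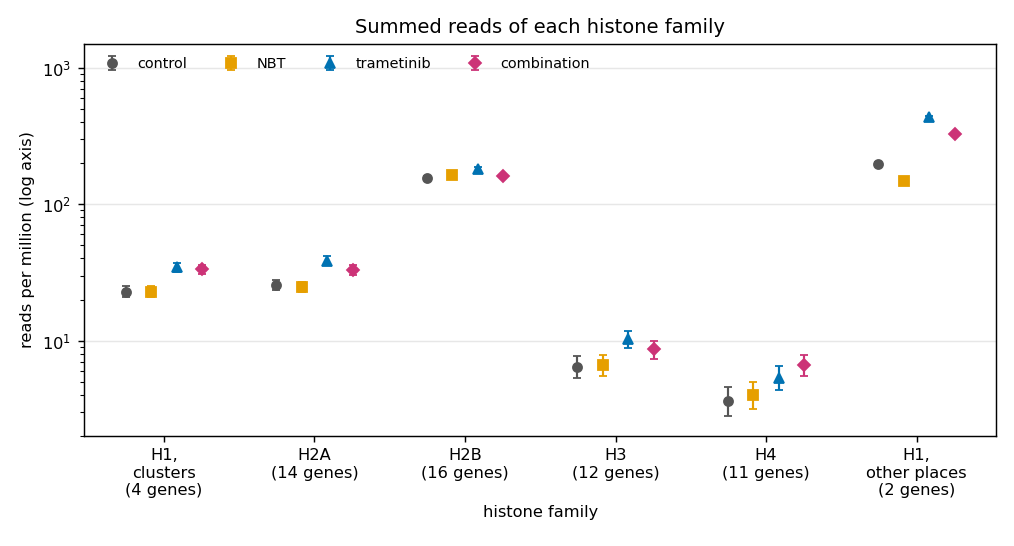
Summed CPM (log axis) of each histone family in the 4 libraries, with the 2 H1 genes outside the clusters apart and 95% counting intervals as bars. The H1 genes outside the clusters lie between 147 and 434 CPM, and H2B between 156 and 181.

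All 57 clustered genes together had a log2 ratio to control of 0.05 (-0.01 to 0.11) in NBT, 0.33 (0.27 to 0.39) in trametinib and 0.18 (0.12 to 0.24) in the combination, and all 59 genes -0.16, 0.77 and 0.46. By place, the distal part of chromosome 6 was at 0.67 and chromosome 1 at 0.51 in trametinib, and the proximal part, which holds H2BC12, at 0.16. In NBT the distal part was at -0.17 (-0.30 to -0.04) and the proximal part at 0.11 (0.03 to 0.18). Without the 9 genes known to give polyadenylated mRNA, the other 48 clustered genes had 519, 556, 742 and 762 reads, which gave log2 ratios to control of 0.05, 0.50 and 0.49. The 9 had 3512, 3772, 4364 and 3997 reads and ratios of 0.05, 0.30 and 0.12. None of the 9 was called at a limit of 1 in any comparison, where 1.13% to 4.89% of all tested genes were called per direction. In those 48 genes trametinib and the combination differed by less than counting error, with a ratio of -0.01.

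Gene by gene, members were called at an adjusted value of at most 0.05 in an exact binomial test of the reads of 2 libraries, Benjamini-Hochberg adjusted over all genes with a read in either, and a log2 ratio of at least 1. In NBT against control 3 of 54 tested members were called higher (H1-4, H2AC14, H4C12), against 1.63% of all tested genes, and 3 lower (H2BC9, H4C11, H4C5), against 1.13%. In trametinib against control 5 of 53 were higher (H1-10, H1-4, H2AC14, H3C14, H4C12; all genes 3.86%) and 1 lower (H4C11; 2.28%). In the combination against control 6 of 53 were higher (H1-4, H2AC20, H2BC15, H4C12, H4C14, H4C15; 4.89%) and 1 lower (H4C11; 3.83%). Once near-copies were summed, the higher and lower counts were 1 and 2 in NBT, 4 and 0 in trametinib and 4 and 0 in the combination. These 3 comparisons share the control library, whose values of H1-4 and H4C12 (6 and 0 reads) enter every one of them.

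Between treated libraries, the combination against trametinib had 3 of 54 members higher (H2AC20, H2BC15, H3C15), against 2.64% of all tested genes, and 3 lower (H2AC14, H2AC8, H3C14), against 3.73%. With near-copies summed, 2 were higher and 1 lower. The combination against NBT had 5 of 55 higher (H1-10, H2AC20, H2AC7, H2BC15, H2BC9; 2.38%) and 0 lower (2.16%).

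A limit of 0.5 on the log2 ratio was also used for the 11 members and 11359 genes with at least 50 reads in some library. H2BC15 (25, 29, 17 and 60 reads) reached 50 only in the combination. H3C8 (38, 36, 62 and 68) reached it only in trametinib and the combination. Both thus entered through libraries where they are high, so their calls and their part in the medians below depend on this filter. In trametinib against control 6 of the 11 were higher (H1-10, H1-2, H2AC6, H2BC21, H2BC5, H3C8), against 11.3% of all such genes, and 0 lower, against 7.34%. The combination against control had 5 higher (H1-10, H1-2, H2BC15, H2BC21, H3C8; 15.7%) and 0 lower (13.5%). The NBT library had 0 higher (6.22%) and 0 lower (5.64%). The combination against NBT had 6 higher (H1-10, H1-2, H2AC6, H2BC15, H2BC5, H3C8; 7.91%) and 0 lower (6.49%), and against trametinib 1 higher (H2BC15; 10.5%) and 1 lower (H2BC5; 13.7%). The median log2 ratio of the 11 was -0.05 in NBT, 0.57 in trametinib and 0.36 in the combination, beside 0.00, 0.06 and 0.02 for all genes with that many reads.

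**Figure D4:**
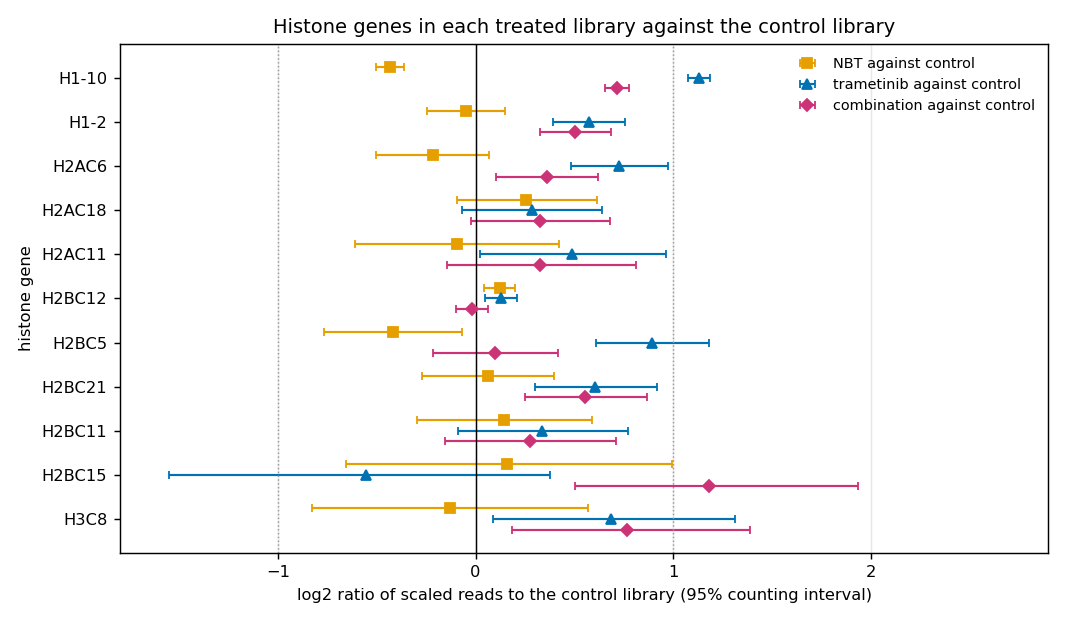
Log2 ratio of scaled reads to the control library for the 11 better covered histone genes, with 95% counting intervals as bars, 1 marker shape per treated library and dotted lines at -1 and 1. In trametinib 10 of the 11 lie above 0 and only H1-10 passes 1, and in NBT 5 of the 11 lie above 0.

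NBT was also compared with and without trametinib, as the combination against trametinib beside NBT against control. For H1-10 both steps were nearly equal, -0.42 and -0.43, with a difference of 0.02 (-0.07 to 0.10). H2BC15 stepped 1.74 with trametinib and 0.16 without it. The sum of the clustered genes stepped -0.15 with trametinib and 0.05 without it, a difference of -0.20 (-0.29 to -0.12), and H2BC12, which has the most reads of them, stepped -0.15 and 0.12.

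Among 18 genes of S phase, the time of histone synthesis, CDC6 was the only 1 with a log2 ratio above 0 in the combination against control. E2F1, CDT1, PCNA and the MCM genes serve S phase entry and DNA synthesis, and of the 18 such genes 0 were called in NBT or in trametinib against control, with median log2 ratios of -0.39 and -0.05. Of all tested genes, 1.63% were called higher and 1.13% lower in NBT, and 3.86% and 2.28% in trametinib. In the combination 7 of the 18 were called lower than control (CCNE2, CDT1, E2F1, MCM3, MCM4, PCNA, TYMS), against 3.83% of all tested genes, and 0 higher, against 4.89%, with a median of -0.92. CDC6, which loads the MCM helicase, had 1299, 1986, 1194 and 2128 reads and a log2 ratio of 0.65 (0.55 to 0.75) to control in the combination. E2F1, a transcription factor of S phase genes, had 1061, 832, 996 and 341 reads and PCNA, the sliding clamp of the replication fork, 2706, 2182, 2874 and 1281. MCM3, a helicase subunit, had 8888, 6378, 6542 and 3736. Against trametinib, 6 of the 18 were lower in the combination (CCNE1, E2F1, E2F2, MCM4, PCNA, TYMS), against 3.73% of all tested genes. In bulk RNA, fewer cells in S phase and less RNA per cell cannot be told apart.

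**Figure D5:**
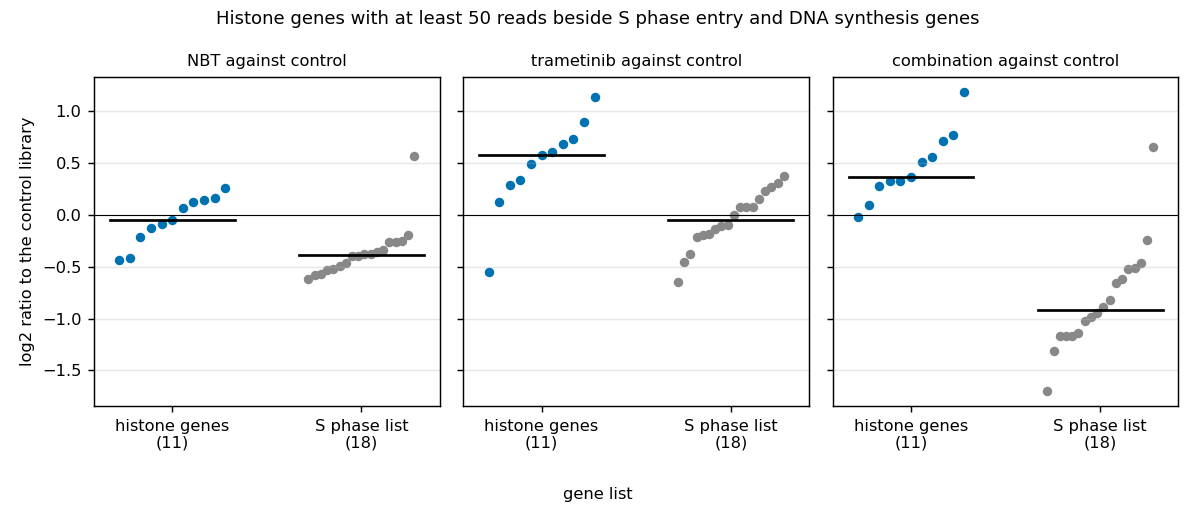
Log2 ratio to the control library of the 11 better covered histone genes and of 18 genes of S phase entry and DNA synthesis, 1 panel per treated library, 1 point per gene and a bar at each median. In the combination the median of the 11 is 0.36 and the S phase median -0.92. The 11 include H1-10, which lies outside the clusters, and H1-2, H2AC6, H2BC5, H2BC11, H2BC12 and H2BC21, known to give polyadenylated mRNA. H2BC15 enters only through its reads in the combination. The clustered genes among the 11 have a median of 0.34 there. All clustered genes summed are at 0.18 in the combination, and those not on the polyadenylated list at 0.49.

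None of 14 genes that transcribe or process histone mRNA was called in any of the 5 comparisons. Of all tested genes, 1.13% to 4.89% were called per direction and comparison. In the combination against control 5 of the 14 had a log2 ratio above 0, and the median was -0.22. NPAT, the activator at histone loci, had 713, 618, 605 and 557 reads. SLBP, which binds the stem-loop shown above, had 1384, 1068, 1306 and 915, with a log2 ratio of -0.66 in the combination. Above control there were HINFP (382, 390, 465 and 523 reads), at 0.39 (0.20 to 0.58), and ZNF473 (619, 841, 422 and 793), at 0.29 (0.14 to 0.45). Of 18 histone chaperones, 0 were called in NBT or trametinib against control. In the combination ASF1A (289, 438, 389 and 822 reads) was called higher than control, against 4.89% of all tested genes. CHAF1A (1760, 1341, 1425 and 859) and TONSL (1831, 1313, 1667 and 836) were called lower, against 3.83%. Relative to trametinib, the combination had ASF1A called higher (log2 ratio 1.03, all genes 2.64%) and TONSL lower (-1.045, all genes 3.73%). ASF1A hands over H3 and H4 to other chaperones, and CHAF1A is the large subunit of the chromatin assembly factor that loads them behind the fork.

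Of 10 histone variant genes outside the clusters, which include H1-10, only H1-10 was called, in trametinib against control and in the combination against NBT. It was higher in both, where 3.86% and 2.38% of all tested genes were called higher. H2AX, the H2A variant phosphorylated at DNA breaks, had 10885, 8251, 10590 and 7100 reads and H3-3B, which encodes the replacement histone H3.3, 8104, 8586, 7710 and 8369. H2AZ1 had 4649, 4979, 5916 and 4436 reads and H3-3A 3132, 2999, 3597 and 2821. H2AX was the furthest of these 4 from control, at a log2 ratio of -0.68 in the combination. MACROH2A1 (5985, 5792, 5018 and 4562 reads) was at -0.46 there, and H2AJ (318, 343, 459 and 517 reads) at 0.64 (0.43 to 0.84). Of the 10 variant genes, 4 had a ratio above 0 in the combination against control.

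The 23 genes with 10 to under 50 reads and the 25 with fewer are known only coarsely. The 48 genes under 50 reads summed to 320 reads in control, 317 in NBT, 472 in trametinib and 447 in the combination. Among genes with at least 10 reads in some library, the ratio of trametinib to control was above 0 in 3 of 3 H1, 8 of 10 H2A, 6 of 8 H2B, 5 of 6 H3 and 5 of 7 H4 genes, and the interval was below 0 in 1, H4C11. In NBT against control it was above 0 in 1 of 3, 5 of 10, 4 of 8, 3 of 6 and 5 of 7. Near-copies such as H4C11 and H4C12 or H3C14 and H3C15 enter these tallies as separate genes, although reads were divided between them. The number of members with at least a part of a read was 47 in control, 49 in NBT, 47 in trametinib and 49 in the combination.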

How the data were processed

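RNA of 4 MIA PaCa-2 cultures was sequenced, 1 library a condition, and libraries were assigned to conditions by title and treatment. The submitters' processing notes name Bowtie2 2.2.5, RSEM 1.2.8 and hg38. For each gene and transcript the authors deposited an unscaled estimated count (the expected count of RSEM), a TPM value, which is relative to gene length and to the whole library, and an FPKM value, which was not used here. RSEM divides a read that fits several genes among them, so counts of near-identical histone genes are uncertain one by one. Read length and strandedness are not given in the sources used here.

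Estimated counts were rounded, and library sums served for scaling. Log2 ratios used 0.5 added reads. Calls came from a two-sided exact binomial test between the counts of 2 libraries, summing outcomes no more likely than the one seen, and were Benjamini-Hochberg adjusted over every gene that had 1 count or more in the pair. Limits were an adjusted value of 0.05 and a log2 ratio of 1, or of 0.5 for genes with at least 50 reads. The test compares libraries and not conditions. Intervals are Clopper-Pearson at 95%, and the interval of a difference of log2 ratios is a normal one from the 4 counts. Both cover counting error only, as PCR copies of a molecule are counted as separate reads. A fold against fewer than 3 reads was bounded with 3 reads.

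Words of 50 bases were counted in GENCODE 29 coding transcripts, and members with at least 50% of the words of the smaller gene in common were summed as near-copies. Some models end at the stop codon, such as those of H2BC12, H4C12, H2AC7 and H2AC14. For these genes the share of words in no other gene describes the coding part only. This bears on the sums of less shared members, which leave H2BC12 out. Named genes were members with at least 50 reads in some library, every called member, and genes of the other lists (histone variants, histone mRNA processing, chaperones, S phase, polyadenylated members and cell markers). Of those lists, the called genes were named with some others, which were not always the most abundant. One gene that the rule takes is not reported here. The members and lists were chosen with earlier results of these data known. Alternatives used TMM factors (edgeR 4.0.16), median-of-ratios factors (DESeq2 1.42.0), TPM with 0.1 added, 5 added reads, transcript counts, minimums of 10 and 50 counts, limits of 0.5 and 2, and a negative binomial exact test (edgeR) with an assumed coefficient of variation of 0.2 or 0.4. The scripts were tested on simulated data (Python 3.11.15, scipy 1.17.1).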

Additional observations from a re-analysis of the deposited data

Results flagged for a closer look

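H2BC15 took a different step with NBT when trametinib was present. Its log2 ratio was 0.16 for NBT against control and 1.74 for the combination against trametinib, a difference of 1.58 with a counting interval of 0.50 to 2.66 on 25, 29, 17 and 60 reads. This interval covers counting error only, and with 1 library a condition the difference between conditions was not tested.

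The sum of H3C13, H3C14 and H3C15, which share sequence, stepped 1.54 with NBT alone and -0.40 with NBT on top of trametinib, a difference of -1.936 with a counting interval of -3.77 to -0.11 on 4, 13, 18 and 14 reads. For H3C14 and H3C15 alone, which are identical in every word, the difference was -1.66 (-3.52 to 0.20), an interval that holds 0. Neither difference was tested against a spread between cultures.

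H2AC14 went up with NBT alone and down with NBT on top of trametinib, from 0 to 7 and from 10 to 2 reads. With 0.5 reads added the difference of the log2 ratios was -5.977, a size that depends on the added reads because control is at 0, and it was not tested. Summed with H2AC13, with which it shares most of its sequence, the difference was -0.32 (-1.72 to 1.07).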

How the results depend on the processing

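Of the recomputed counts of called members 95 stayed within 1.5 times the reported one, 32 were smaller and 3 larger, and of the recomputed ratios of single members 597 kept their side of the limit. The 3 others were H2BC15 in the combination against NBT, which fell just short of 1 with TMM factors (0.99), with median-of-ratios factors (1.00 after rounding) and with 5 added reads (0.92). Comparisons are taken below in the order NBT, trametinib and combination against control, combination against trametinib, combination against NBT. With a minimum of 50 counts, 0, 1, 1, 1 and 2 members were called higher and 0 lower in the first 4 comparisons. At a log2 limit of 0.5 the counts called higher grew to 10 in trametinib, in the combination against control and in the combination against NBT, and at a limit of 2 they shrank to 3, 3 and 1. An assumed coefficient of variation of 0.2 left 1, 2, 1, 1 and 0 called higher, and 1 lower in each of the first 4 comparisons. The call of H1-10 in the combination against NBT was among those lost. A coefficient of 0.4 left 0, 0, 1, 0 and 0 called higher and 0 lower in the first 4 comparisons, so almost no call here survives a spread of that size between cultures. Summing near-copies, which was added after the data were seen, left 1 called higher in NBT, 0 lower in trametinib and in the combination against control, and 1 lower in the combination against trametinib.

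The log2 ratio of all members' summed reads depends on H1-10 and on the clusters. Without H1-10 it was 0.053 (the opposite sign in NBT), 0.33, 0.18, -0.15 and 0.12, and that of H1 in NBT turned to 0.006. Without both genes outside the clusters, also added after the data were seen, it was 0.052, 0.33, 0.18, -0.15 and 0.12, and that of H1 in NBT 0.003. With members that have at least 50% of their words in no other gene it was -0.34, 1.00, 0.64, -0.36 and 0.98, since H2BC12 is then left out. TMM factors gave 0.69 in trametinib and -0.26 in the combination against trametinib, and median-of-ratios factors 0.70 in trametinib. Summed TPM gave 0.61 in trametinib, 0.34 in the combination against control, -0.27 against trametinib and 0.50 against NBT. The H2B sum in NBT changed sign with summed TPM (-0.013), without H2BC12 (-0.18) and with the less shared members (-0.18). The H1 sum fell to 0.60 in trametinib and 0.55 in the combination without H1-10, and the H2B sum rose to 0.55 and 0.30 without H2BC12. The H4 sum in the combination fell to 0.27 without its most abundant member, H4C12. That value keeps the near-copy H4C11, given 22 reads in control and 0 in the combination, so it rests on how reads were divided between them. With the less shared members the H4 sum fell to 0.35 in the combination and was -0.085 against trametinib, the opposite sign. Of 190 recomputed ratios of sums, 139 stayed within the counting interval of the reported value, 44 moved past it and 7 changed sign, and the cause of the moves was not tested where no left-out gene shows it.

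No paired analysis was possible because each condition has 1 library. For the same reason no library was left out. Depth limits what can be seen: 48 of the 59 genes stayed under 50 reads, and a gene at 0 is known only to lie below 3 reads.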

Other observations

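Estimated reads of H3C4, an H3 gene of the distal chromosome 6 cluster, were divided between its RefSeq transcripts in a library-dependent way. NM_001376937.1 was given 0 reads in control and in NBT, 21.2 in trametinib and 7.75 in the combination, and NM_003530.4 was given 23.3, 31, 18.9 and 23.5.

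H1-10 took 48.0% of all reads on the 59 genes in control, 39.7% in NBT, 61.7% in trametinib and 57.3% in the combination. H4 genes took 0.878%, 1.07%, 0.758% and 1.16%, and H3 genes 1.56%, 1.78%, 1.45% and 1.52%. H3-2, an H3 gene that the rule does not take, was estimated at 10.5, 16.0, 7.05 and 20.7 reads.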
